A study of Homo sapiens with 4 samples.

Results

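HMGA2 and RPSAP52 form a head-to-head pair of overlapping genes on the long arm of chromosome 12, and the peaks of SAF-A CLIP-seq on their RNAs are described here. HMGA2 lies on the plus strand from 66218240 to 66360071 (GRCh37), a span of 141.8 kb. RPSAP52 was taken as the minus strand from 66151801 to 66220800, so that 2561 bases at the HMGA2 start belong to both spans. A peak was a member if its midpoint lay in the HMGA2 span on the plus strand or in the RPSAP52 span on the minus strand. Of 278959 listed peaks, 419 were members, 411 of them in HMGA2 and 8 in RPSAP52. The pair was chosen by the peak positions of these libraries: a plus-strand window at the HMGA2 start held many sites that both pull-downs listed and neither input did. The higher peak share of HMGA2 in the pull-downs and the number of its input-free sites are therefore given as a description, without a test. The same holds for how often its pull-down peaks were found in the other pull-down or in an input.

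CLIP-seq identifies RNA that ultraviolet light has crosslinked to a protein in living cells. The protein was wild-type SAF-A (scaffold attachment factor A, also called hnRNP U), in HCT116, an established human colorectal carcinoma line. The samples were 2 pull-downs with a SAF-A antibody, set against 2 inputs, portions of lysate taken without antibody. RNA of both kinds was recovered from the blot at the size of SAF-A and slightly above. The replicates are not labelled as separate cultures, so their spread may be technical. The lists held 96061 and 111256 peaks in pull-down replicates 1 and 2, and 29386 and 42256 in input replicates 1 and 2. Read depth is unknown, so counts are also given per 10000 listed peaks of the same library. Intervals are 95% Wilson intervals, which cover the counting of peaks only.

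SAF-A binds both RNA and DNA and stays with chromatin in the nucleus, where much of the RNA it meets is unspliced. HMGA2 encodes a small chromatin protein whose AT-hooks bind AT-rich DNA. It is made in embryonic tissue and again in many tumours, and its mRNA is a classic target of the let-7 microRNAs. Most of the HMGA2 gene is a single very long intron between the exons of the AT-hooks and the exons at the 3′ end. RPSAP52 is a transcribed pseudogene of the ribosomal protein SA gene, read in the opposite direction from the 5′ end of HMGA2. Without an annotation of the same build, peaks were placed by distance from the HMGA2 start and not by exon or intron.

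Peaks were spread along the HMGA2 span on the coding strand, became sparser towards its 3′ end, and were few in the 100 kb on either side. The pull-downs listed 168 and 198 HMGA2 peaks and the inputs 13 and 32. On the minus strand of the same span the pull-downs had 2 and 4 peaks, against 1 and 0 for the inputs. The plus-strand share was 98.8% (interval 95.8 to 99.7) and 98.0% (95.02 to 99.2) in the pull-downs. In the inputs it was 92.9% (68.5 to 98.7) and 100% (89.3 to 100). Whole lists, which pool genes of both strands, had 49.7% to 50.5% of peaks on the plus strand. One-sidedness was usual where peaks were dense. Among 22 windows of 100 kb on 1 strand with a mean of at least 50 pull-down peaks, here called dense windows, which include both HMGA2 windows, the median share of pull-down peaks on the opposite strand was 2.28% (0 to 9.01%). It was 1.82% in the window at the HMGA2 start, and 8 of the 22 had a lower one. The strand share overlapped between pull-downs and inputs (two-sided exact permutation p = 1). The difference in means of 1.99 percentage points turned to -1.58 without input replicate 1.

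**Figure D1:**
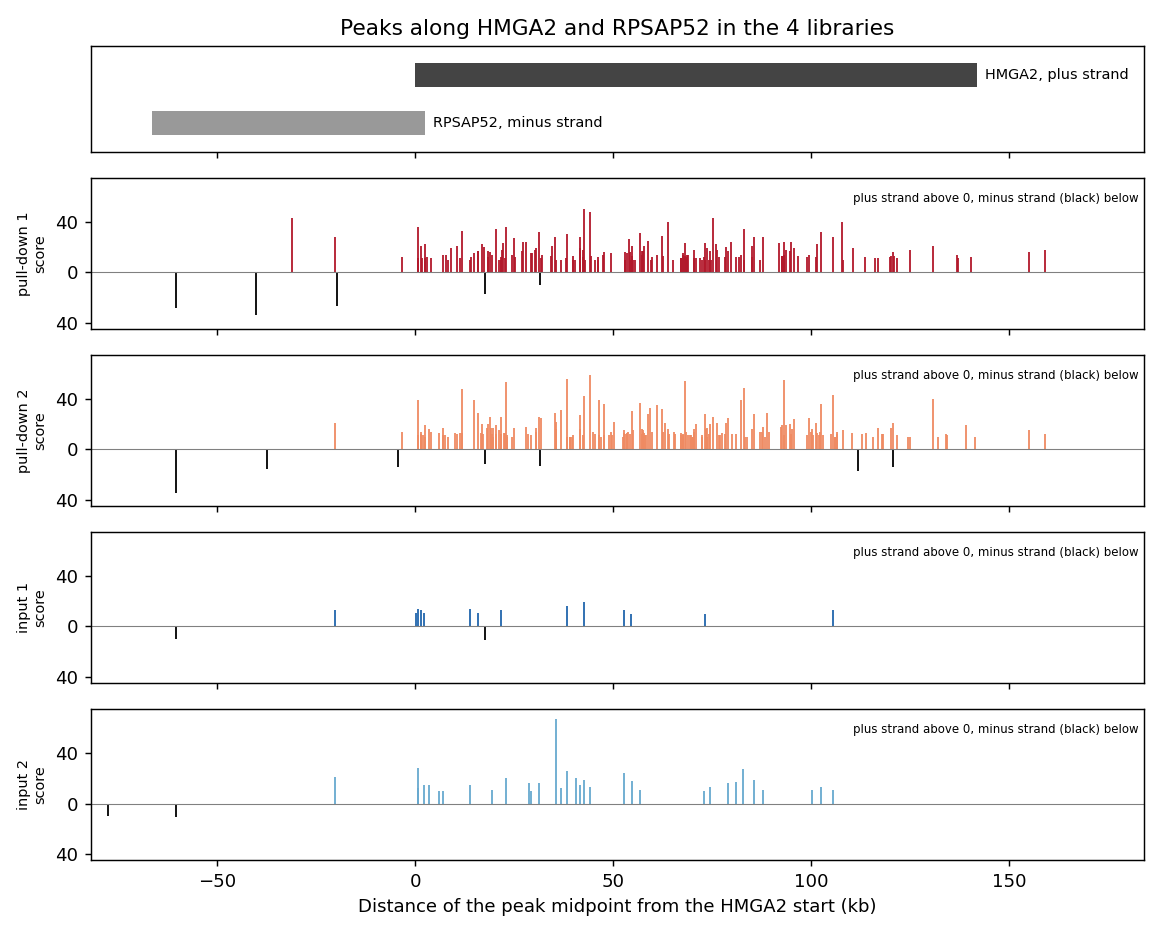
Peaks of the 4 libraries around HMGA2 and RPSAP52 by distance of the midpoint from the HMGA2 start (kb), with line height showing the authors' score, plus strand above 0 and minus strand in black below. Plus-strand peaks are dense between the HMGA2 start and about 106 kb in the pull-downs (168 and 198 in the whole span), sparse in the inputs (13 and 32), and rare outside the span, while RPSAP52 carries 3 and 3 against 1 and 1 peaks.

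The number of HMGA2 peaks per kb was 1.18 and 1.40 in pull-down libraries, against 0.0917 and 0.226 in input libraries. The 100 kb before the gene start held 3 and 2 plus-strand pull-down peaks, against 1 in each input. The 100 kb after the gene end held 2 in each pull-down and 0 in each input, which allows up to 1.02 and 0.710 per 10000 listed peaks in input replicates 1 and 2. The HMGA2 peak nearest to the start was 0.0915 kb inside the span, in input replicate 1 (score 11). The nearest plus-strand peaks outside it lay at -3.29 kb, before the start, where the pull-downs scored 12 and 14. At the other border, the last HMGA2 peak lay 141.4 kb from the start, with a score of 10 in pull-down replicate 2. The next plus-strand peaks were at 155.1 kb, with scores of 16 and 15 in the pull-downs.

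HMGA2 took a larger part of the pull-down lists than of the input lists. It held 17.5 (interval 15.04 to 20.3) and 17.8 (15.5 to 20.5) of every 10000 pull-down peaks, against 4.42 (2.59 to 7.57) and 7.57 (5.37 to 10.7) of every 10000 input peaks. Pull-downs averaged 17.6 ± 0.2 and inputs 5.998 ± 2.227 (SD, n = 2 each), a ratio of 2.94 or a log2 ratio of 1.56. Both pull-downs lay above both inputs. Among 190 windows of 100 kb on 1 strand with a mean of at least 10 peaks, 51.6% also had both pull-downs above both inputs. Such an order was therefore common, and nothing is read from it for HMGA2. The window that holds the HMGA2 start (66200001 to 66300000) held 129 and 141 peaks of the pull-downs, against 12 and 26 of the inputs. It ranked 3 of 190 by pull-down share, and the window that holds the HMGA2 end ranked 21.

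The size of the difference depended on how the lists were cut to a common ground. When every list kept only as many best-scoring peaks as the shortest one held, HMGA2 had 14 and 19 pull-down peaks, against 13 and 19 input peaks, a log2 ratio of 0.044. The pull-down lists then went down to scores of 30 and 33, the input lists to 10 and 13. With 1 minimum score of 20 for all libraries, whose scores are not known to be on 1 scale, HMGA2 kept 45 and 49 pull-down peaks, against 0 and 7 input peaks. These were 9.52 and 9.23 of every 10000 kept pull-down peaks, against 0 and 4.07 of every 10000 kept input peaks. At a minimum of 30 pull-downs kept 14 and 22 peaks, against 0 and 1 for the inputs. Pull-down shares stayed above input shares up to a minimum of 40, and at 50 the groups overlapped on 1 and 5 against 0 and 1 peaks.

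**Figure D2:**
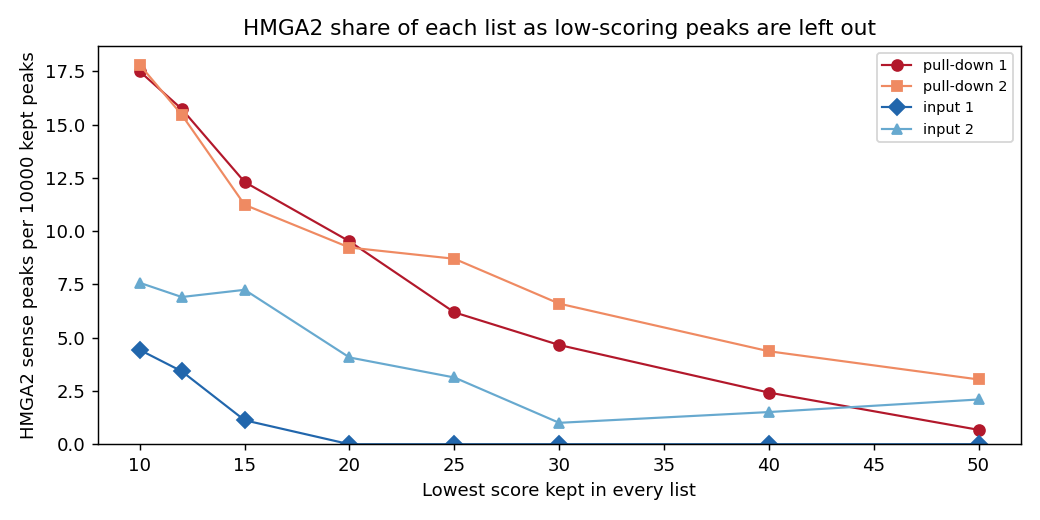
HMGA2 sense peaks per 10000 kept peaks (y axis) against the lowest score kept in every list (x axis), 1 line per library. The pull-down shares are 17.5 and 17.8 at a minimum of 10 and 9.52 and 9.23 at a minimum of 20, against input shares of 4.42 and 7.57 and of 0 and 4.07.

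Along the gene, pull-down peaks were level over the first part and sparse towards the 3′ end. The span was divided into 10 segments of 14.2 kb each. The first 6 segments held 18 to 25 peaks each in pull-down replicate 1 and 20 to 33 in replicate 2. The most were in segment 5, from 56.7 to 70.9 kb, with 25 and 33 pull-down peaks, against 0 in each input. Segment 9 held 9 and 10 pull-down peaks and segment 10 held 4 and 6, against 0 in both inputs for each segment. A count of 0 allows up to 1.02 and 0.710 per 10000 in the inputs. The first limit is above the pull-down values of segment 9 (0.937 and 0.899), and both are above those of segment 10 (0.416 and 0.539). A difference from input replicate 1 was therefore not detectable in segment 9, nor one from either input in segment 10.

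Segment 1, which holds the HMGA2 start, was the one where the libraries were most alike. It had 1.87 and 1.80 of every 10000 pull-down peaks and 1.70 and 1.66 of every 10000 input peaks, a ratio of 1.09. These shares rest on 18 and 20 pull-down peaks, against 5 and 7 input peaks. Within it, the first 1 kb held 3 and 2 pull-down peaks, against 2 in each input. On the 2561 bases shared with RPSAP52, the plus strand held 6 and 7 pull-down peaks, against 4 and 3 input peaks, or 0.625 and 0.629 against 1.36 and 0.710 per 10000. Segment 2 already had a ratio of 4.02, with 23 and 25 pull-down peaks, against 2 in each input. Segment 3 had 2.186 and 1.888 per 10000 in the pull-downs, against 0.340 and 1.893 in the inputs. Both pull-downs lay above both inputs in 9 of the 10 segments, the exception being segment 3, and segments 9 and 10 count among the 9 on input counts of 0. Among 1168 windows of the same length with at least the mean count of the sparsest HMGA2 segment, 33.0% showed that order. That minimum is a mean of 2.5 peaks, so these windows are not matched to the fuller segments. The locus was also chosen by this contrast, and nothing is read from the 9 segments.

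The last 3 kb of the span, where the final exon and the let-7 target sites of the mRNA are expected, held 1 and 2 pull-down peaks and 0 input peaks. Their scores were 10 to 19, and none was listed in more than 1 library. The median HMGA2 peak lay 57.0 and 60.4 kb from the start in the pull-downs, against 21.5 and 41.1 kb in the inputs. As a share of the span, pull-downs averaged 41.4% ± 1.7 and inputs 22.1% ± 9.7 (SD, n = 2 each). The exact permutation p was 0.333, the smallest that 2 against 2 libraries allow, so no test of single values could reach 0.05. The difference of 19.3 percentage points was 12.4 without input replicate 1.

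**Figure D3:**
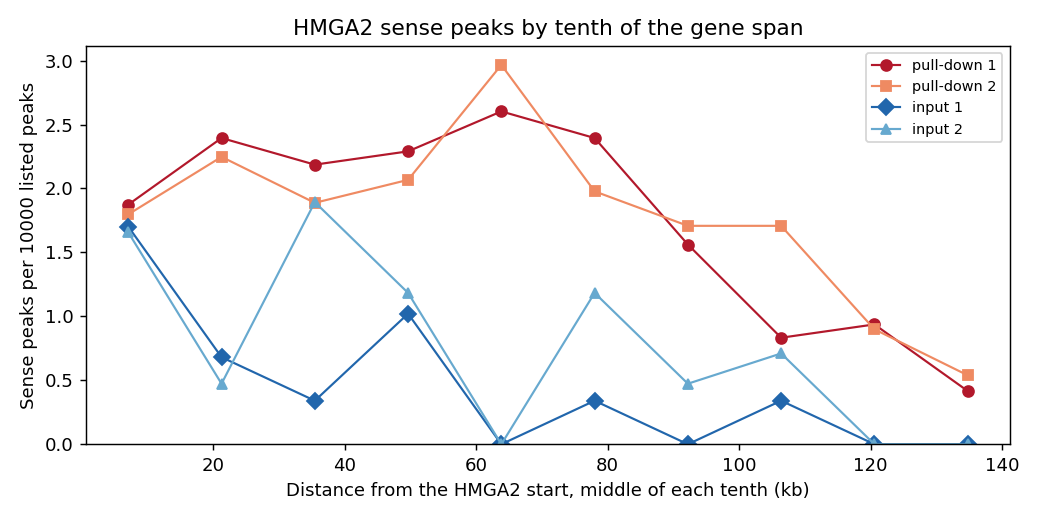
HMGA2 sense peaks per 10000 listed peaks (y axis) in 10 equal segments of the span, plotted at the middle of each segment (kb from the start, x axis), 1 line per library. The pull-downs are highest in segment 5 (2.603 and 2.966, inputs at 0) and lowest in segment 10 (0.416 and 0.539), and all 4 libraries lie between 1.66 and 1.87 in segment 1.

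Peaks on HMGA2 RNA were narrower in the pull-downs than in the inputs. The median HMGA2 peak of the pull-downs was 26 and 23 bases wide, against 63 and 58 bases for the inputs. Wide peaks, of at least 50 bases, numbered 30 of 168 and 22 of 198 in the pull-downs, or 17.9% (interval 12.8 to 24.3) and 11.1% (7.45 to 16.2). In the inputs they numbered 9 of 13 and 21 of 32, or 69.2% (42.4 to 87.3) and 65.6% (48.3 to 79.6). Pull-downs averaged 14.5% ± 4.8 and inputs 67.4% ± 2.5 (SD, n = 2 each), and the groups did not overlap (exact permutation p = 0.333). Whole pull-down lists had 16.2% and 19.2% wide peaks, against 22.1% and 26.6% for whole input lists. In lists of equal length, 57.1% and 73.7% of HMGA2 pull-down peaks were wide, against 69.2% and 73.7% of input peaks, and the groups overlapped (exact permutation p = 1).

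HMGA2 pull-down peaks were often of a middle width that is uncommon in the whole lists but usual in dense windows. Peaks of 20 to 49 bases made up 52.4% and 50.0% of HMGA2 peaks in the pull-downs, against 17.4% and 18.8% of all peaks in the same libraries. In the window at the HMGA2 start they made up 55.8% and 45.4%, and the medians over the 22 dense windows were 55.1% and 52.1%. The median HMGA2 peak was wider than the median of its own list in 4 of 4 libraries, by 11 and 8 bases for the pull-downs, against 49 and 42 bases for the inputs. A two-sided exact sign-flip permutation test over the 4 libraries gave p = 0.125, the smallest it can give. At sites where peaks overlapped, the pull-down peak was mostly the narrower one. It was narrower in 11 of 11 overlapping pairs of pull-down replicate 1 with input replicate 1, and in 12 of 12 of pull-down replicate 2 with that input. With input replicate 2 it was narrower in 18 of 26 and 22 of 32 pairs. The pairs are not separate sites, since 1 input peak can meet several pull-down peaks and is set against both pull-downs. They involved 10 peaks of input replicate 1 with each pull-down, and 24 and 28 peaks of input replicate 2.

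**Figure D4:**
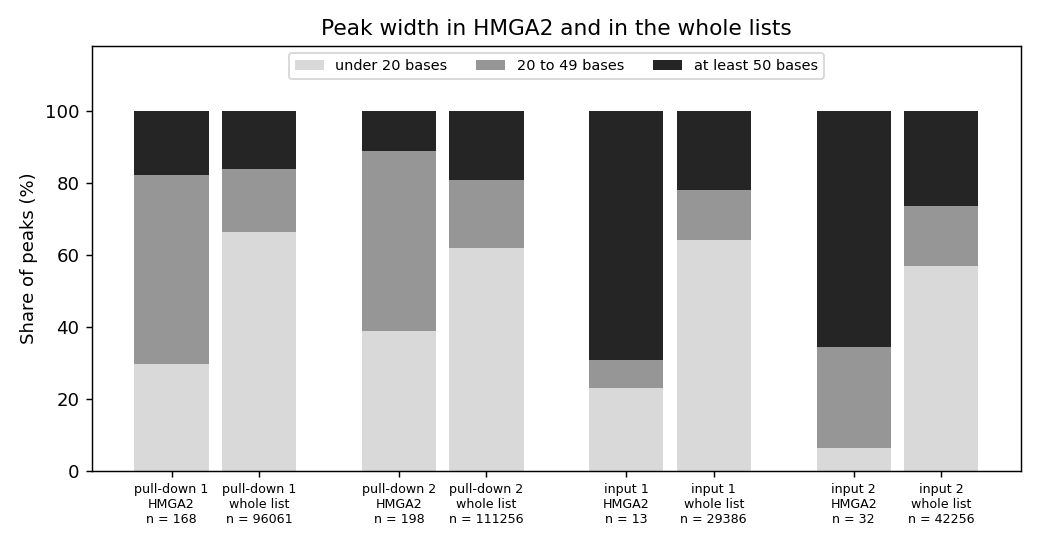
Share of peaks (%) under 20, of 20 to 49 and of at least 50 bases in HMGA2 and in the whole list of each library, with the number of peaks under each bar. Peaks of 20 to 49 bases make up 52.4% and 50.0% of HMGA2 pull-down peaks, and wide peaks 69.2% and 65.6% of HMGA2 input peaks.

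HMGA2 peaks scored low within their lists, as did the peaks of other dense windows. The authors' score has no stated meaning, so each peak was placed as a percentile among the peaks of its own library. The median HMGA2 peak of the pull-downs stood at percentile 31.6 and 30.1, against 31.0 and 43.6 for the inputs. It was below its list's median in 4 of 4 libraries, with a mean difference of -16.4 ± 5.6 points (SD over libraries, n = 4). The exact sign-flip permutation p was 0.125. In the pull-downs the median peak lay below its list's median in 22 of 22 dense windows in each library, with a median percentile over these windows of 30.3 and 32.7, against 31.6 and 27.5 in the window at the HMGA2 start. Scores of 10 to 14 made up 53.6% and 59.1% of HMGA2 peaks in the pull-downs, against 34.0% and 35.2% of the whole lists. The best HMGA2 scores were 50 and 59 for pull-downs, against 19 and 67 for inputs. The best HMGA2 peak ranked 14353 and 12060 by score in the pull-down lists, and 12547 and 2926 in the input lists.

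Within HMGA2, wide pull-down peaks scored higher than narrow ones, the reverse of the whole lists. Their median score was 24 and 36 for wide peaks and 11 in both libraries for peaks under 20 bases. In the whole pull-down lists wide peaks had a median of 14, against 20 for peaks under 20 bases. Among HMGA2 peaks with a score of at least 30, 8 of 14 and 15 of 22 were wide. This order was shared by other dense places. Of the 22 dense windows, 15 and 19 had enough peaks of both widths (at least 5 each) in pull-down replicates 1 and 2. Wide peaks had the higher median score in 14 and 18 of these.

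**Figure D5:**
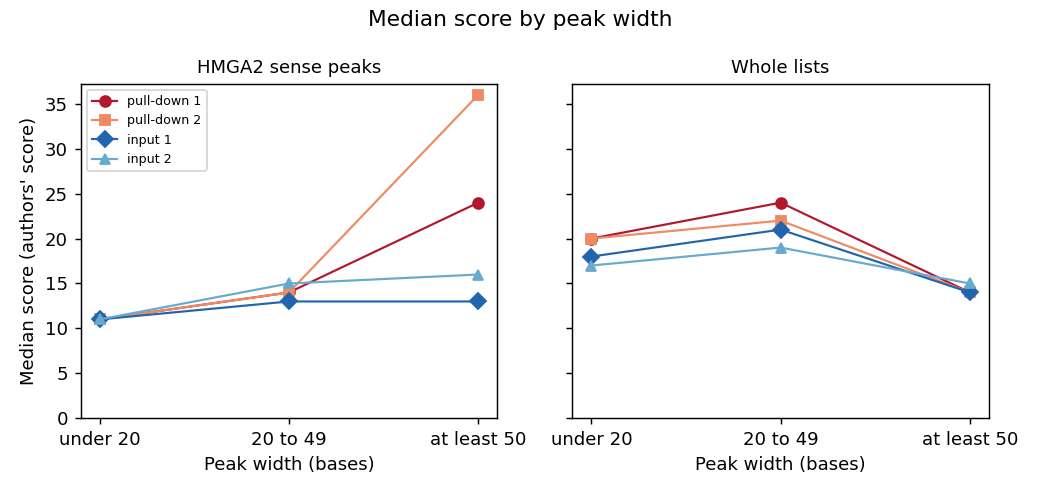
Median score (y axis, authors' score) of peaks in 3 width classes (x axis, bases), in HMGA2 on the left and in the whole lists on the right, 1 line per library. In HMGA2 the pull-down medians climb from 11 for narrow peaks to 24 and 36 for wide ones, whereas in the whole lists wide peaks have the lowest median, at 14 and 15.

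The share of HMGA2 peaks found again in the other pull-down was close to that of the whole lists, and the share found in an input was lower, but both comparisons depended on the score. Of HMGA2 peaks of pull-down replicate 1, 109 of 168 or 64.9% (interval 57.4 to 71.7) overlapped a peak of replicate 2, against 65.6% of its whole list. Of those of replicate 2, 110 of 198 or 55.6% (48.6 to 62.3) overlapped one of replicate 1, against 56.7%. A peak of either input was found at 29 of 168 and 36 of 198 HMGA2 pull-down peaks, or 17.3% and 18.2%. In the whole pull-down lists this share was 29.9% and 26.6%. The locus was chosen by sites that neither input listed, so nothing is read from the lower share in HMGA2. HMGA2 peaks score lower than their lists, so the shares were also set against peaks of like score, in 4 score ranges for each of the 2 pull-downs. The share found in the other pull-down was higher in HMGA2 than in the list in 7 of these 8 comparisons. Sites listed by both pull-downs chose the locus, and the same overlaps count in both directions, so nothing is read from this number. At scores of 30 and above it was 92.9% and 95.5% in HMGA2, against 73.3% and 70.9% in the lists, and at 10 to 14 it was 55.6% and 38.5%, against 50.5% and 35.0%. Peaks of like score were not matched for width. At scores of 30 and above the median width was 52.5 and 71.5 bases in HMGA2, against 16 in both lists. The exception was at 15 to 19 in pull-down replicate 1, with 66.7% against 71.0%. The share found in an input was higher in HMGA2 in 4 of the 8 and lower in 4. Among peaks scoring 10 to 14, 10.0% and 7.69% of HMGA2 pull-down peaks met an input peak, against 9.54% and 8.06% of all such peaks. At 15 to 19 the shares were 9.09% and 18.8% in HMGA2, against 18.1% and 15.4% in the lists. At 20 to 29 they were 25.8% and 37.0%, against 30.6% and 26.6%, and at 30 and above 64.3% and 50.0%, against 58.0% and 54.8%. The score ranges hold 14 to 117 HMGA2 peaks each. In the other direction, 11 of 13 and 29 of 32 HMGA2 input peaks overlapped a peak of either pull-down, which was 84.6% and 90.6%, against 71.0% and 67.7% of the whole input lists. These were not matched for width, with medians of 63 and 58 bases in HMGA2, against 14 and 16 in the lists. Between inputs, 9 of 13 HMGA2 peaks of replicate 1 (69.2%, interval 42.4 to 87.3) overlapped one of replicate 2, against 77.7% of its list. Of those of replicate 2, 9 of 32 (28.1%, 15.6 to 45.4) overlapped one of replicate 1, against 54.1%.

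When overlapping HMGA2 peaks of the 4 libraries were merged, they formed 252 sites. Of these, 137 were listed in 1 pull-down only, 80 in both pull-downs only, and 19 in both pull-downs and 1 input. All 4 libraries shared 6 sites, 6 further sites combined 1 pull-down with at least 1 input, and 4 were listed in inputs only. In the whole series 22.2% of merged sites were in both pull-downs only and 10.3% in all 4 libraries, against 31.7% and 2.38% in HMGA2. The 80 input-free sites were 33.5 bases wide in the median, against 16 bases for the 35889 of the whole series. They were spread over the gene, with a median of 1.02 kb and at most 9.19 kb between neighbouring midpoints. Their number was 18 in the better-scoring 50% of each list and 3 in lists of equal length.

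The 5 input-free HMGA2 sites with the best mean rank by score were 70 to 103 bases wide. The first lay 11.8 kb from the start (66230020 to 66230091) and scored 33 and 48 in the pull-downs. The next lay at 93.2 kb (66311375 to 66311455), with scores of 24 and 55, and at 68.2 kb (66286363 to 66286465), with scores of 23 and 54. They were followed by sites at 75.1 kb (66293329 to 66293398), scoring 43 and 26, and at 62.3 kb (66280457 to 66280551), scoring 29 and 32. Of these 5, 4 lay in the middle of the gene, between 62.3 and 93.2 kb. Even the best of them ranked 25615 and 16966 in the pull-down lists.

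Of the sites listed by both pull-downs, 6 were also listed by both inputs. Scores are not known to be comparable between libraries, so they are set side by side without a comparison. The best-ranked of these sites lay at 42.6 kb (66260803 to 66260847), with pull-down scores of 50 and 42, against 19 in each input. A site at 38.3 kb (66256552 to 66256597) had pull-down scores of 30 and 56, against input scores of 16 and 26. A site at 105.5 kb (66323735 to 66323808) had pull-down scores of 28 and 43, against input scores of 13 and 11. The highest-scoring HMGA2 input peak (67, input replicate 2) lay at a site 35.5 kb from the start. Input replicate 1 had no peak at that site, and the best pull-down scores there were 28 and 29. The widest input-free sites were 159, 126 and 109 bases wide and lay 63.9, 59.4 and 130.7 kb from the start. The last of these (66348852 to 66348960), with scores of 21 and 40, was the only site of segment 10 found in both pull-downs.

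RPSAP52, the antisense partner, was nearly bare. It had 3 peaks in each pull-down, against 1 in each input, or 0.312 (interval 0.106 to 0.918) and 0.270 (0.0917 to 0.793) against 0.340 (0.0601 to 1.93) and 0.237 (0.0418 to 1.34) per 10000. Pull-downs averaged 0.291 ± 0.030 and inputs 0.288 ± 0.073 (SD, n = 2 each), a log2 ratio of 0.01 on very few peaks, and the groups overlapped. The opposite strand of the same stretch, outside HMGA2, held 3 and 2 plus-strand peaks of the pull-downs, against 1 of each input. RPSAP52 density was 0.0435 per kb in each pull-down, against 1.18 and 1.40 per kb for HMGA2.

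The 8 RPSAP52 peaks formed 5 sites. A single one was shared by both pull-downs, on the minus strand from 66157800 to 66157816, 60.4 kb before the HMGA2 start. Its pull-down scores were 28 and 35, against input scores of 10 and 11. The other 4 sites were each listed in 1 pull-down only, with scores of 14 to 34. None of the 5 lay in the 2561 bases shared with HMGA2, where 0 minus-strand peaks were listed in any library. Fewer RPSAP52 molecules and fewer contacts per molecule cannot be told apart from a peak list, and the same holds for HMGA2 and its many peaks.

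Among windows of 100 kb, the one most like the window at the HMGA2 start was on chromosome 9, minus strand (21500001 to 21600000). Likeness was the Euclidean distance over log2 peaks per 10000 in the 4 libraries, among windows with a mean of at least 10 peaks. That window was at a distance of 0.37, with 134 and 163 peaks of the pull-downs, against 14 and 30 of the inputs. The next, at distances of 1.21 and 1.42, were on chromosome 10, plus strand (114700001 to 114800000), and chromosome 11, minus strand (5500001 to 5600000). In all 3 windows wide peaks took a smaller share of pull-down than of input peaks. They were 12.7% and 9.82% of pull-down peaks on chromosome 9, against 57.1% and 36.7% of input peaks. On chromosome 10 they were 16.7% and 15.96% of pull-down peaks, against 80% and 75% of input peaks. On chromosome 11 they were 1.25% and 1.18% of pull-down peaks, against 57.1% and 25% of input peaks, and the value of input replicate 2 was below the 26.6% of its whole list. In the window at the HMGA2 start wide peaks were 14.7% and 8.51% of pull-down peaks, against 66.7% and 57.7% of input peaks. Wide peaks took a smaller share of pull-down than of input peaks in 21 of the 22 dense windows.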

How the data were processed

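The authors deposited 1 peak list per library, without a header, giving chromosome, start, end, score and strand. The deposited score is a whole number, 10 or more, with no stated meaning. STAR, featureCounts and GRCh38 are named in the submitters' processing notes. Which peak caller was used, and at what threshold, is not given in the sources used here. Positions were taken as GRCh37: of the chromosome 12 peaks, 58 end past its GRCh38 end and 0 past its GRCh37 end (lengths from general knowledge). The GRCh38 span of HMGA2 held 2 plus-strand peaks, against 411 in the GRCh37 span.

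Members and lists were chosen with earlier results of these data known. Same-strand peaks that shared 1 base or more counted as overlapping. Single values were tested by two-sided exact permutation over libraries (Python 3.11.15, NumPy 2.4.6, SciPy 1.17.1). Counting and overlap functions were tested on simulated data (9 of 9 checks matched). Named sites were the 5 best-ranked input-free sites, the 3 best-ranked of those listed in all 4 libraries, and the 3 widest input-free sites. For RPSAP52 they were up to 3 shared sites. Sites were ranked by their mean score rank over the 2 pull-downs, without the inputs. Named windows were the 3 most alike, with 0.5 added to each count. Ties in shortened lists were drawn with a fixed seed. Related genes fixed in the design (HMGA1, LIN28A, LIN28B, IGF2BP family, RPSA, HNRNPU) were not described, since their positions were at hand on GRCh38 only.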

Additional observations from a re-analysis of the deposited data

How the results depend on the processing

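With 2 against 2 libraries no exact test could pass a threshold, so each value was held against the spread between replicates (1 SD). For pull-down peaks found in the other pull-down, the SD was that of the 2 directions of 1 comparison, which is not a replicate spread. Of 64 alternative values of 8 results, 47 moved by less than that (a count by at most 1.5 times), 14 moved by more and 3 changed sign, leaving aside the RPSAP52 ratio, which is near 0. Some of the 47 could not move, such as values with the replicate number as a block and recurrence between pull-downs without an input. Others kept the same peaks, as with any overlap with the span and RPSAP52 without the shared stretch. The 47 are therefore no measure of stability. The log2 ratio of HMGA2 shares (1.56, pull-down over input) was 0.044 in lists of equal length, 2.80 among peaks under 50 bases and -0.14 among wide peaks, and it ranged from 1.22 to 1.996 when 1 library was left out. The difference of the HMGA2 score percentile (-6.45) was 11.9 in the better-scoring 50% of each list and -12.8 in lists of equal length. The wide share (-52.9 percentage points) was -6.04 in lists of equal length, -40.1 in the better-scoring 50% and -42.7 with wide peaks counted from 30 bases. The position (19.3) was 11.5 in the better-scoring 50%. That setting gave 18 input-free HMGA2 sites, lists of equal length gave 3 and an overlap of 50% of both peaks gave 54, against 80. The number was 83 without input replicate 1 and 98 without input replicate 2. HMGA2 pull-down peaks found in the other pull-down, 60.2% on average, were 51.1% in the better-scoring 50% and 40.7% with an overlap of 50% of both peaks. The log2 ratio of RPSAP52 shares (0.01) was 1 in lists of equal length, on 1 peak in each pull-down and in 1 input, and ranged from -0.23 to 0.30 without 1 library. Leaving out 1 library gave -56.3 to -49.6 percentage points for the wide share, 12.4 to 26.2 for the position, -1.58 to 5.56 for the strand share and -12.7 to -0.16 for the score percentile. The causes were not tested. Shortening a list changes its number of peaks and its lowest score together, so these cannot be told apart.

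Replicate numbers are shared between the groups, but the labels do not say that they mark a common lysate. Deviations of same-numbered libraries over 190 windows had a correlation of 0.17. With the replicate number as a block, a test added after the data were seen, the differences stay the same by construction (-52.9, 19.3, 1.99 and -6.45 for the wide share, position, strand share and score percentile). The smallest p that 2 pairs allow is 0.5. RPSAP52 gave no ratio in the better-scoring 50%, where both inputs had 0 peaks, and recurrence and input-free sites gave none without a pull-down. Read depth is unknown, so list length could not be set against sequencing.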

Other observations

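The 7 minus-strand peaks inside the HMGA2 span formed 4 sites of 7 to 13 bases. A site at 17.6 kb from the start (66235791 to 66235800) had scores of 17 and 12 in the pull-downs, against 11 in input replicate 1, and one at 31.5 kb (66249689 to 66249701) scored 10 and 13 in the pull-downs. The other 2, at 111.8 and 120.6 kb, were in pull-down replicate 2 only. A RefSeq table on GRCh38 places 2 further antisense genes, HMGA2-AS1 and HMGA2-AS2, within HMGA2, and the minus-strand peaks were not assigned to them. A plus-strand peak with a minus-strand peak of the same library within 20 bases occurred 1 time among 411 HMGA2 peaks. In the whole lists, 0.192% and 0.218% of pull-down peaks and 0.330% and 0.409% of input peaks had such an opposite-strand partner. Nothing is read from the HMGA2 count.

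Pull-down peaks covered 3.85% and 4.18% of the HMGA2 span, against 0.582% and 1.51% for input peaks. A single HMGA2 site, 2.30 kb from the start (66220527 to 66220550), was listed in both inputs and in neither pull-down, with scores of 11 and 15.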
